A study of Mus musculus with 1376 samples.

Results

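A pair of pericyte-like states was set apart within the Pdgfrb-expressing cells of mouse lung by the genes they carry. Levels are in CPM, a gene's read count scaled to the total count of its cell. A cell entered if it had at least 200 CPM of Pdgfrb, the platelet-derived growth factor receptor that marks mural cells and fibroblasts. It was called Clstn2-high if at least 3 of the 6 genes Clstn2, Adcy8, Chst5, Pcdh19, Kcnq5 and Trpc6 had at least 20 CPM. It was called Col8a1-high if at least 3 of Col8a1, Adora1, Cybrd1, Epha2, Edn3 and Vtn did. Cells that met both conditions were left out. Of 1376 cells, 46.8% passed the Pdgfrb threshold. Among these, 14 were Clstn2-high, 37 were Col8a1-high, 18 met both conditions and the other 89.3% met neither, so the 2 states together held 51 of 1376 cells. The 13 genes named here chose the cells, so their levels are a description and give no support to the existence of the states.

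All cells came from lung tissue of 3 mice. The strain, ACTA2GFP:CSPG4dsRED, is named for fluorescent reporters of smooth muscle actin (Acta2) and of the NG2 proteoglycan (Cspg4). All groups share this genotype, no treatment is given, and every cell is its own deposited sample. Cells were sorted 1 per well into 384-well plates and read by Smart-Seq2, a full-length cDNA method without molecular identifiers. They came from male mouse 1 (on a pair of plates), male mouse 2 and female mouse 1 (on 1 plate each), so sex, mouse and plate cannot be told apart between the last of these. Ages are labelled 8 to 30 weeks per sample and 8 to 21 weeks for the series, the extract protocol names heart although the tissue label is lung, and the sources used here do not give the sort gate.

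Pericytes are the mural cells that lie within the basement membrane of capillaries and contact the endothelium. They depend on platelet-derived growth factor from endothelial cells acting on Pdgfrb, share the actin and myosin apparatus of smooth muscle in graded amounts, and take part in vessel stability, capillary tone and matrix production. In lung, pericytes are rich in Notch3, Postn and the subunits of the nitric oxide receptor guanylate cyclase (Gucy1a1 and Gucy1b1), while vascular smooth muscle cells carry high Acta2, Tagln, Myh11 and the transcriptional coactivator Myocd.

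Among Pdgfrb-passing cells, Clstn2-high cells made up 2.17% (exact 95% interval 1.19% to 3.62%) and Col8a1-high cells 5.75% (4.08% to 7.83%). These intervals and those below cover counting error only. In female mouse 1, 12 cells were Clstn2-high and 23 Col8a1-high, and in male mouse 1 there were 2 and 8. Male mouse 2 had 6 Col8a1-high cells and 0 Clstn2-high cells, which allows a share of up to 1.81% by the limit of 3 counts and 2.20% by the exact interval. The states thus rest mainly on 1 mouse and 1 plate, and since the gate is not known, the shares describe what was sorted.

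**Figure D1:**
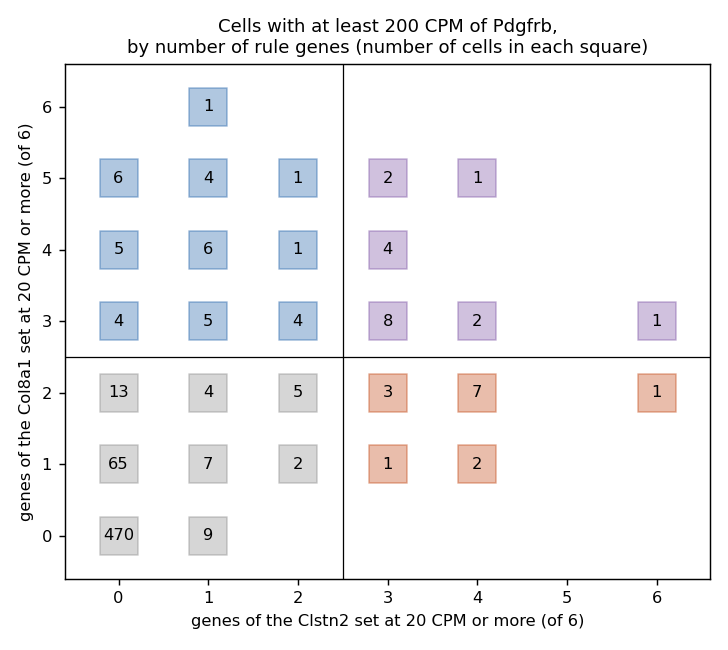
Numbers of Pdgfrb-passing cells, over all 3 mice, by how many genes of the Clstn2 set (horizontal axis) and of the Col8a1 set (vertical axis) had at least 20 CPM. Lines mark the threshold of 3 genes, with the 37 Col8a1-high cells at upper left, the 14 Clstn2-high cells at lower right, the 18 cells that met both conditions at upper right and cells of neither state at lower left.

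The line between the states is a threshold and not a gap. Of the 14 Clstn2-high cells, 4 had exactly 3 genes of their set, and 11 also carried 2 genes of the Col8a1 set while 3 carried 1. Of the 37 Col8a1-high cells, 13 had exactly 3 genes of theirs, 15 carried no gene of the Clstn2 set, 16 carried 1 and 6 carried 2. Just outside, 7 cells of neither state had 2 Clstn2-set genes and 22 had 2 Col8a1-set genes. Pdgfrb itself ran from 1057 to 9163 CPM in Clstn2-high cells (median 4699) and from 297.8 to 8415 in Col8a1-high cells (median 3066). Trpc6, a receptor-operated cation channel, was at 20 CPM or more in all 14 Clstn2-high and in 16 of 37 Col8a1-high cells, and Vtn, the adhesive glycoprotein vitronectin, in 12 and 25.

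Cells of the states did not differ much in depth. Totals had a median of 181299 counts in Clstn2-high and 233860 in Col8a1-high cells, with medians of 4274.5 and 4367 genes detected. In female mouse 1 the summed counts behind the comparisons were 2216613 and 5784653. In the shallowest cell of each state, 20 CPM was 1.12 and 1.06 counts, so a single read reaches or nearly reaches the detection threshold there.

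The labelled lineage was checked against fixed marker lists. Clstn2-high cells had 10 to 12 (median 11) of 17 pericyte markers at 20 CPM or more and Col8a1-high cells 4 to 13 (median 10), against 0 to 15 (median 7) in cells of neither state. Rgs5 and Kcnj8, pericyte markers in many tissues, and Anpep were at 0 to 11.5 CPM in every Clstn2-high cell of female mouse 1, and Rgs5 was at 20 CPM or more in 4 of 23 Col8a1-high cells there. The leukocyte marker Ptprc and the epithelial marker Epcam were at 0 in Clstn2-high and Col8a1-high cells of female mouse 1. Pecam1, which marks endothelium, passed 50 CPM in 1 Col8a1-high cell of all mice (53.7 CPM, male mouse 1). That cell summed to 3812 CPM over the endothelial and 19850 CPM over the pericyte markers. Pdgfra, which marks fibroblasts, passed 50 CPM in another (1244 CPM, male mouse 2). That Pdgfra-bearing cell summed to 14160 CPM over the adventitial and 9509 CPM over the alveolar fibroblast markers, with 6690 CPM of the matrix gene Dcn, and to 1152 CPM over the pericyte markers, so its markers go against a pericyte. In female mouse 1 the adventitial sum was 11.58 to 403.8 CPM (median 83.4) in Clstn2-high and 38.5 to 1851 (median 496.6) in Col8a1-high cells, the alveolar fibroblast sum had medians of 563.2 and 800 CPM, and the endothelial sum ran from 21.9 to 803.7 CPM in Clstn2-high and from 10.8 to 1037 CPM (median 328.8) in Col8a1-high cells. The part of other cells' RNA in the comparisons of the states was not tested. A single Clstn2-high cell of female mouse 1 held 1460 CPM of the macrophage gene Lyz2. Summed over 9 leukocyte markers, Clstn2-high cells of that mouse reached 2695 CPM and Col8a1-high cells 360.8 CPM, with a median of 0 in both. The higher sum exceeds Lyz2 alone, so other leukocyte markers contributed to it. Ptprc, Tyrobp, Cd52 and Coro1a were at 0 in these Clstn2-high cells.

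Position on the plate moved with the states. Each 384-well plate had rows in which most cells carried Cspg4 and rows in which few did, here called high-Cspg4 rows where the row's median cell had at least 100 CPM. All 14 Clstn2-high cells lay in high-Cspg4 rows, against 9 of 37 Col8a1-high cells, 15 of 18 cells that met both conditions and 48.9% of cells of neither state. On the plate of female mouse 1, rows D to G (91 cells, row medians of 540 to 815 CPM of Cspg4) held 12 Clstn2-high and 3 Col8a1-high cells. Rows H to P (row medians of 2.3 to 25 CPM) held 0 and 20, and rows A to C (66 cells) held none of either. The labels do not say whether rows were sorted through different gates. State and row therefore cannot be told apart for most of these cells, and values within the high-Cspg4 rows are given below for the counts over all genes, the larger lists and part of the named genes.

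**Figure D2:**
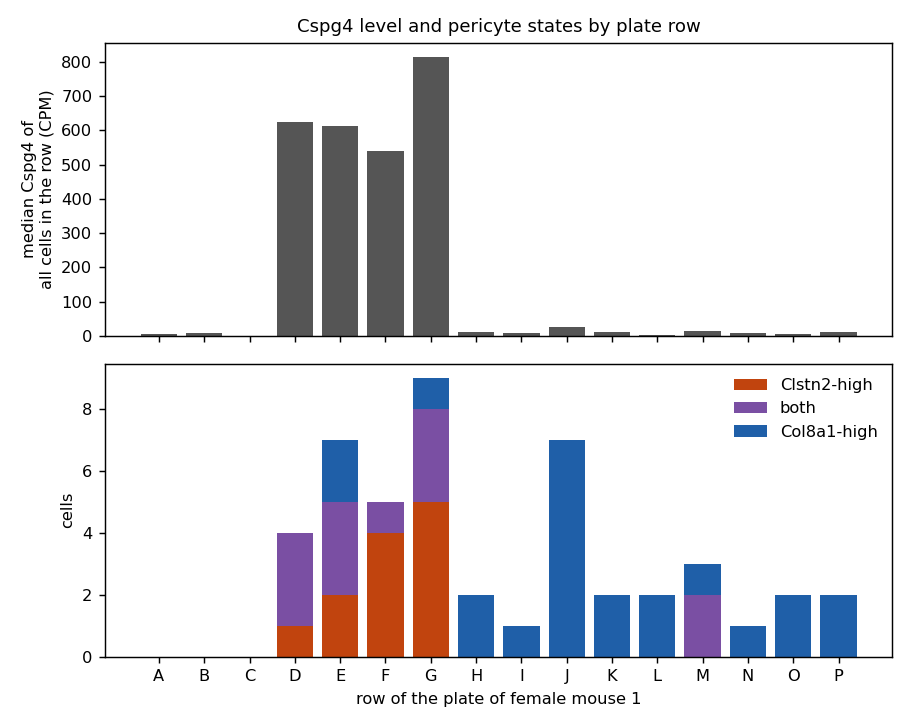
Plate of female mouse 1 by plate row. The upper bars give the median CPM of Cspg4 over all cells of the row, and the lower stacked bars the number of cells of each state in the row. All 12 Clstn2-high cells lie in rows D to G, where Cspg4 is high, and 20 of 23 Col8a1-high cells lie in rows H to P, where it is low.

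The mouse is the replicate. A test between the states asked for at least 3 cells of each in at least 2 mice, and only female mouse 1 had them, so no test of single genes is given for this contrast and genes are described by size. Counts were summed over the 12 and the 23 cells of female mouse 1, and a gene counted as at least 4-fold higher from the ratio of the summed CPM. Values of male mouse 1 (2 cells against 8) stand beside them. Of 1359 genes detected at 20 CPM or more in at least 50% of the cells of either state, 94 (6.92%) were at least 4-fold higher in Clstn2-high cells and 12.4% in Col8a1-high cells. The median log2 ratio of Clstn2-high over Col8a1-high over all 1359 genes was -0.07. By any size, 656 of the 1359 were higher in Clstn2-high cells and 703 in Col8a1-high cells. The direction was the same in male mouse 1 for 62 of the first 94 and 83.4% of the second group, against 62.1% of all detected genes. A state with no count was set to a floor of 3 counts, which can decide the direction of a low gene, as it did for Hgf. Within rows D to G of female mouse 1 (12 cells against 3), 96.8% of the first and 74.6% of the second kept their direction, and 66 and 81 genes were still at least 4-fold apart. These are the same 12 Clstn2-high cells and 3 of the same 23 Col8a1-high cells, so part of the agreement is built in. No share by direction over all detected genes is given within these rows, so the list counts there have no background beside them. A fit over the 2 mice with at least 2 cells of each state, added after the data were seen and left with 1 residual degree of freedom, called 0.116% of genes higher in Clstn2-high and 0.338% higher in Col8a1-high cells (edgeR), and no gene is drawn from it.

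The gene with the largest ratio toward Clstn2-high cells was Kitl, the ligand of the receptor KIT. It had 369.9 CPM over the 12 Clstn2-high cells of female mouse 1 (lowest 0, median 189.7, highest 1640) and 0.173 CPM over the 23 Col8a1-high cells (highest 5.20), from 820 counts against 1. It had 0 and 1111 CPM in the 2 Clstn2-high cells of male mouse 1 and 0 in all 8 Col8a1-high cells there. The log2 ratio of 11.06 has a counting interval of 8.58 to 16.37, because a single count stands under it, and that count lies in rows D to G. Only 6 of the 12 Clstn2-high cells had Kitl at 20 CPM or more, so the sum is carried by part of the cells.

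Spp1, the secreted phosphoprotein osteopontin, had 1667 CPM in Clstn2-high cells (lowest 2.08, median 1361, highest 6081), with 10 of 12 cells at 20 CPM or more. In Col8a1-high cells it had 64.7 CPM, with a median of 0 and 1 cell at 6862 CPM, so the cell ranges overlap through that cell. The ratio was 25.8 (23.2 to 28.8), and within rows D to G it was 1.37 on the log2 scale. The 2 Clstn2-high cells of male mouse 1 had 0 and 3681 CPM and all 8 Col8a1-high cells had 0. Cadm1, an immunoglobulin-type adhesion molecule, was at 20 CPM or more in 11 of 12 Clstn2-high and 2 of 23 Col8a1-high cells, with 531.9 against 44.4 CPM. Its ratio within rows D to G was small (log2 0.27), where the 3 Col8a1-high cells summed to 442.3 CPM.

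Other genes named on this side included Bambi, Lepr and Cxcl14, with log2 ratios within rows D to G of 1.92, 2.26 and 0.93. Bambi, a decoy receptor that damps BMP and TGF-beta signalling, had 727.7 against 47.02 CPM (log2 3.95, interval of the ratio 13.6 to 17.7), Lepr, the leptin receptor, had 326.6 against 30.6 CPM (log2 3.42), and Cxcl14, a chemokine, had 570.2 against 33.02 CPM (log2 4.11). Cxcl14 was not low in all Col8a1-high cells. In CPM scaled by TMM, those of male mouse 2 summed to 611.4, against 37.2 in female mouse 1 and 12.04 in male mouse 1. Ccn4, a matricellular protein, had 816.6 against 9.51 CPM (log2 6.42), and the cell-cycle regulator Rgcc had 483.6 against 8.82 CPM (log2 5.78) with 10 of 12 against 3 of 23 cells detected. All 15 genes named for this direction by the fixed rule, which also took in Phldb2, Abl1, Add3, Dgkh, Itm2a, Fam20a and Fam162b, were at least 4-fold higher in male mouse 1 as well, and a rule on direction there was part of their choice. Their ratios ran from 10.7 to 2140. Within rows D to G all 15 kept their direction and 9 were at least 4-fold apart. In female mouse 1 the cell ranges of the 2 states were apart for none of them. In male mouse 1 both Clstn2-high cells lay above all 8 Col8a1-high cells for Dgkh, Itm2a, Fam162b and Lepr. The choice by direction in that mouse makes such an order more likely, and no share over all detected genes stands beside it.

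**Figure D3:**
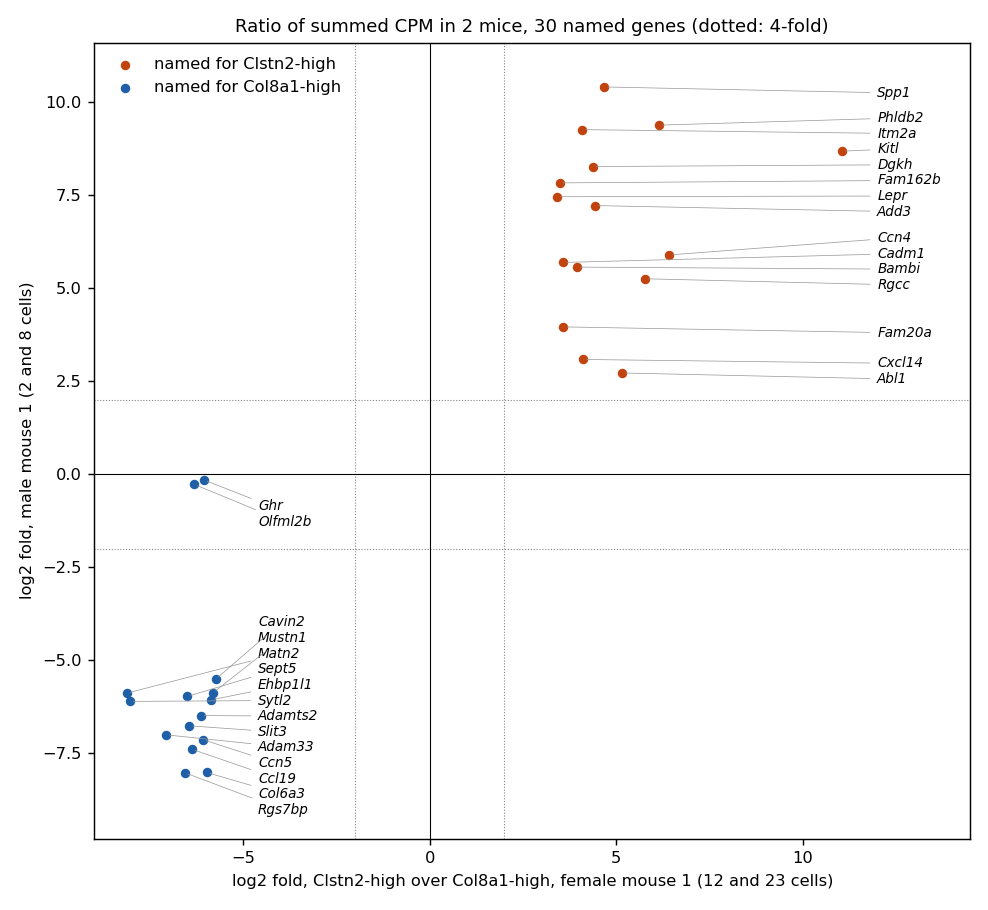
Log2 ratio of summed CPM, Clstn2-high over Col8a1-high, in female mouse 1 (12 against 23 cells) and male mouse 1 (2 against 8 cells) for the 15 genes named in each direction. Where a group had no count, the ratio is against a floor of 3 counts. The genes were required to have the same direction in both mice; all 15 of the Clstn2-high group and 13 of the Col8a1-high group were at least 4-fold apart in male mouse 1.

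Pericyte markers stood on both sides. Of 11 detected, 4 were at least 4-fold higher there (Cspg4, Pdzd2, Higd1b and Ebf1), none were in Col8a1-high cells, 10 were higher in Clstn2-high cells by any size, and their median log2 ratio was 1.22 against -0.07 over all genes. The other 6 of the 17 markers, which were not at 20 CPM in 50% of the cells of either state, were all higher in Col8a1-high cells, among them Rgs5 (0.451 against 115.8 CPM) and Itga7 (170.1 against 198.8), so 10 of the whole list were higher in Clstn2-high and 7 in Col8a1-high cells. In the high-Cspg4 rows D to G, 8 of the 11 were higher in Clstn2-high cells, with a median log2 ratio of 0.33. Summed over the list per cell, Clstn2-high cells of female mouse 1 had 24500 to 37530 CPM (median 33380) and Col8a1-high cells 6287 to 30530 (median 13500). Those of male mouse 1 were 16650 and 19810 CPM in the 2 Clstn2-high cells and 8731 to 19850 (median 12080) in the 8 Col8a1-high cells, so the groups overlapped.

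Pdzd2, a protein with many PDZ domains (GRCm38 chr15:12359711-12739924, minus strand), was the clearest of them. It had 6329 CPM in Clstn2-high cells of female mouse 1 (lowest 2296, median 5964, highest 12170) and 766 CPM in Col8a1-high cells (0, 77.6 and 4782). The ratio was 8.26 (7.99 to 8.55) and 0.91 on the log2 scale within rows D to G, and 7 of 12 Clstn2-high cells lay above every Col8a1-high cell. Both Clstn2-high cells of male mouse 1, at 2163 and 3009 CPM, lay above all 8 Col8a1-high cells (0 to 993.2, median 119.9). Cspg4, the NG2 proteoglycan that the reporter strain labels, had 1617 against 160.6 CPM (log2 3.33) in female mouse 1, and the cells of male mouse 1 overlapped (log2 0.73). The plate rows are themselves described by Cspg4, so this value moves with them. Higd1b, a small mitochondrial protein of the hypoxia-inducible family, had 675.4 against 113.9 CPM (log2 2.57; 2.92 within rows D to G; 1.51 in male mouse 1).

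Several pericyte markers that were abundant in both states differed less. Notch3, the Notch receptor of mural cells, had 3142 CPM in Clstn2-high and 3242 CPM in Col8a1-high cells. Postn, the matricellular protein periostin, had 6782 against 3103 CPM (log2 1.13), Gucy1a1 5486 against 2951 (log2 0.89) and Cox4i2, an alternative subunit of cytochrome oxidase, 1256 against 537.6 (log2 1.22). Abcc9, a marker low in both states, differed more, with 3.16 against 54.97 CPM. Its direction was opposite in male mouse 1 (log2 0.997), where 1 Clstn2-high cell held 224.7 CPM.

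Few genes of the cyclic nucleotide pathways were detected, and single ones were past 4-fold. Pde5a, a phosphodiesterase that degrades cyclic GMP and so limits nitric oxide signalling, had 1748 CPM in Clstn2-high cells (478.1 to 3588, median 2050) and 220.4 CPM in Col8a1-high cells (0 to 1453, median 66.2). The ratio was 7.93 (log2 4.08 within rows D to G), and 8 of 12 Clstn2-high cells lay above every Col8a1-high cell. The values of male mouse 1 were 712.8 and 1481 CPM against 6.27 to 1718 (median 248.2), so the ranges overlapped. In CPM scaled by TMM, the Col8a1-high cells of male mouse 2 summed to 1070, against 248.5 in female mouse 1 and 300.6 in male mouse 1. It was the only 1 of 4 detected cyclic GMP genes past 4-fold.

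Of 3 detected genes of the cyclic AMP and adenosine list, 1 was past 4-fold on each side. Both are adenylyl cyclases, which make cyclic AMP. Adcy2 was higher in Clstn2-high cells (281.5 against 29.04 CPM, log2 3.28) and Adcy3 in Col8a1-high cells. Adcy3 had 2116 CPM in Col8a1-high cells (75.6 to 4406, median 1996) and 293.7 CPM in Clstn2-high cells (0 to 1598, median 30.7). Of the 23 Col8a1-high cells of female mouse 1, 17 lay above every Clstn2-high cell, and in male mouse 1 all 8 did (53.3 to 1383 CPM against 0 and 6.99). Within rows D to G the log2 ratio was -2.54. Adcy3 overlaps Cenpo, and without strand information their reads cannot be told apart.

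Of 7 detected receptors for vasoactive ligands, 1 was past 4-fold. Agtr1a, the angiotensin II receptor, had 569.8 CPM in Clstn2-high cells (median 619.3) and 140.9 CPM in Col8a1-high cells (median 0), a log2 ratio of 2.02 that falls to 1.74 without the cell with most counts. The 2 Clstn2-high cells of male mouse 1 had 1173 and 1309 CPM and the 8 Col8a1-high cells at most 24.1. Within rows D to G of female mouse 1 the ratio was 0.29 on the log2 scale. The receptors for endothelin (Ednra, log2 1.65), thrombin (F2r, 1.41) and sphingosine-1-phosphate (S1pr3, 1.81) were also higher in Clstn2-high cells, each less than 4-fold. The other 3 of the 7 were higher in Col8a1-high cells. Over the whole list of 45 receptors, most of them under the detection filter, 14 were higher in Clstn2-high and 26 in Col8a1-high cells.

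Smooth muscle genes were higher in Col8a1-high cells. Of 12 detected vascular smooth muscle markers, 8 were at least 4-fold higher there (Mustn1, Myocd, Lmod1, Actg2, Tagln, Acta2, Cnn1 and Myh11) and none in Clstn2-high cells, with a median log2 ratio of -2.44. Of 20 detected contractile protein genes, 9 were at least 4-fold higher there and none in Clstn2-high cells (median -1.52). Of all detected genes, 12.4% were at least 4-fold higher in Col8a1-high cells. The lists overlap: all of the 8 but Mustn1 are also among the 9, which add Ppp1r12b and Tpm2, so the counts are not separate. All 8 and all 9 had the same direction in male mouse 1, against 83.4% of all genes at least 4-fold higher in Col8a1-high cells. Of the detected genes of these lists, 12 of 12 and 14 of 20 were higher in Col8a1-high cells within rows D to G, with median log2 ratios of -0.55 and -0.40. Summed over the vascular smooth muscle list, Clstn2-high cells of female mouse 1 had 2201 to 12520 CPM (median 5172), Col8a1-high cells 5325 to 22120 (median 15800) and cells of neither state 235.6 to 47140 (median 11500). In both male mice the Col8a1-high median was instead under that of cells of neither state. It was 16360 against 24370 CPM in male mouse 1 and 7951 against 27650 CPM in male mouse 2.

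Acta2, smooth muscle alpha-actin, had 618.5 CPM in Clstn2-high cells (187.4 to 1188, median 729.2) and 3736 CPM in Col8a1-high cells (911.8 to 6789, median 4138). All but 1 of the 23 Col8a1-high cells of female mouse 1 lay above every Clstn2-high cell, and in male mouse 1 all 8 did (2416 to 8411 CPM against 244.5 and 305.1). Tagln, an actin-binding protein of smooth muscle, had 174.1 against 1054 CPM (log2 -2.60), and 21 of 23 and 8 of 8 Col8a1-high cells lay above. Myocd, the coactivator of serum response factor that switches on smooth muscle genes, had 12.2 CPM in Clstn2-high and 575.7 CPM in Col8a1-high cells (log2 -5.56), though the median Col8a1-high cell held 26 CPM and 13 of 23 were at 20 CPM or more. Mustn1, a small muscle protein, had 15.8 against 885.3 CPM in female mouse 1. The levels in male mouse 1 were 22.2 and 23.3 CPM against 344.9 to 2840.

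Within rows D to G the 3 Col8a1-high cells were closer to the Clstn2-high cells in these genes. The log2 ratio there was -0.98 for Acta2, -0.43 for Tagln, -0.52 for Myocd and -1.28 for Mustn1, against -3.30 for Tpm2, a tropomyosin. In high-Cspg4 rows of male mouse 1 (2 cells against 3) the same ratios were -4.04 for Acta2, -3.71 for Tagln, -5.50 for Mustn1 and -2.58 for Tpm2, and Myocd had no count in the 2 Clstn2-high cells. Des, the muscle intermediate filament desmin, and Mylk, the myosin light chain kinase, differed less than 4-fold, with log2 ratios of -0.93 and -1.20.

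The CArG box, the sequence bound by serum response factor, was looked for in the 250 bases before the start of each gene, on both strands, because serum response factor drives both smooth muscle and immediate early genes. It was present in 1.62% of 27025 genes, in 24 of 974 detected genes with a window (2.46%), in 1 of 61 genes at least 4-fold higher in Clstn2-high cells (1.64%, Dgkh) and in 3 genes at least 4-fold higher in Col8a1-high cells (2.4%). None of the 4 vascular smooth muscle genes past 4-fold that had a window carried one, which says only that these letters are not in this window. The 3 windows are shown because they hold the matches among the Col8a1-high genes, with the box in capitals, from RefSeq on GRCm38.p6, each read 5′ to 3′ on the gene's strand.
Actc1: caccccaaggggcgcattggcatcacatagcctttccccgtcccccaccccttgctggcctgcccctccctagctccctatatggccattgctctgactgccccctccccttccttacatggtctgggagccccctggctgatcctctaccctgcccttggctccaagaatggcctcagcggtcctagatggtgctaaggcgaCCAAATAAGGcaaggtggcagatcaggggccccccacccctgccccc
Fhl1: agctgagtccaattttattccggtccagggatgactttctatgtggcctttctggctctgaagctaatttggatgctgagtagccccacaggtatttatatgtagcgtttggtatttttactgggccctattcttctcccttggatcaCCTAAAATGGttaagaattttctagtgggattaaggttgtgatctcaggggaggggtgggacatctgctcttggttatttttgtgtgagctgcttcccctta
Zfp36: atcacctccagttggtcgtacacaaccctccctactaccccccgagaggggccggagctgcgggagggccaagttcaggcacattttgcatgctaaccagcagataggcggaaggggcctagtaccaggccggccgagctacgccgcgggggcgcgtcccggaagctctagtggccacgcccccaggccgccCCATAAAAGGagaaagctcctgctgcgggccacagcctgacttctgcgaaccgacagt
The Actc1 window lies at chr2:114052876-114053125 (minus strand), that of Fhl1 at chrX:56779433-56779682 (plus strand) and that of Zfp36 at chr7:28379229-28379478 (minus strand). Actc1, cardiac alpha-actin, had 76.7 CPM in Clstn2-high and 327.4 CPM in Col8a1-high cells (log2 -2.09; -4.595 in male mouse 1). Fhl1, a LIM-domain protein of muscle, had 476.4 against 1907 CPM (log2 -2.001; -4.15). Zfp36, which destabilises inflammatory messenger RNAs, had 27.5 against 193.4 CPM (log2 -2.81; -0.43). These 3 genes were singled out after their values were seen.

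Matrix genes were higher in Col8a1-high cells more often than in Clstn2-high cells. Of 29 detected matrix genes, 7 were at least 4-fold higher in Col8a1-high cells (Col6a3, Col14a1, Eln, Thbs1, Loxl1, Fn1 and Tnxb) and 1 in Clstn2-high cells (Spp1), with a median log2 ratio of -1.02. Of the 29, 20 were higher in Col8a1-high cells by any size, against 703 of all 1359 genes. Within rows D to G it was also 20, and the median there was -0.41. Over the whole list of 59, 38 were higher in Col8a1-high and 18 in Clstn2-high cells. Eln, tropoelastin, had 70.8 CPM in Clstn2-high cells (23.2 to 313.2, median 67.98) and 3320 CPM in Col8a1-high cells (48.96 to 9218, median 3306). The ratio was 46.9 (40.1 to 55.2), but only -0.41 on the log2 scale within rows D to G, and 20 of 23 Col8a1-high cells lay above every Clstn2-high cell. The cells of male mouse 1 had 0 and 11.64 CPM against 34.5 to 1856 (median 906.5), with no overlap. Loxl1, an enzyme that cross-links elastin, had 48.7 against 1222 CPM (log2 -4.65; -0.33 within rows D to G), and 0 and 2.77 CPM against 0 to 947.8 in male mouse 1.

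Col6a3, a chain of the microfibrillar collagen VI, had 15.8 CPM in Clstn2-high cells (0 to 41.2) and 995.9 CPM in Col8a1-high cells (9.14 to 2549, median 999.1). Both Clstn2-high cells of male mouse 1 were at 0 and the Col8a1-high cells ran from 0 to 2819 CPM (median 959.7). Proteases and their inhibitors stood on both sides. Of 11 detected, 2 were at least 4-fold higher in Clstn2-high cells (Plat and Adamtsl3) and 3 in Col8a1-high cells (Adamts2, Adamts1 and Timp3), and within rows D to G, 6 of the 11 were higher in Clstn2-high cells. Adamts2, which removes the amino propeptide of fibrillar procollagens, had 16.7 against 1176 CPM (log2 -6.14; -0.067 within rows D to G), with 0 in both Clstn2-high cells of male mouse 1 and a median of 290.1 in its Col8a1-high cells. Adam33, a membrane metalloprotease, had 5.87 against 783.3 CPM (log2 -7.06; -5.11 within rows D to G), and 0 and 4.66 CPM against 0 to 1382 (median 179.5) in male mouse 1. Thbs1, thrombospondin 1, had 41.96 against 1776 CPM (log2 -5.40), but 1 of the 2 Clstn2-high cells of male mouse 1 held 945.8 CPM and the ratio there was -1.66. Fn1, fibronectin, had 15.8 against 196.6 CPM and the opposite direction in male mouse 1 (log2 4.19).

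The other genes named for this direction included Matn2 (1.35 against 376.5 CPM), a filament-forming matrilin, Sytl2 (0.902 against 238.4 CPM), an effector of Rab27, and Slit3 (7.22 against 627.2 CPM), a ligand of Robo receptors. Slit3 was at 20 CPM or more in 18 of 23 Col8a1-high and 1 of 12 Clstn2-high cells of female mouse 1, and in male mouse 1 it was 0 and 0 CPM against 8.29 to 993.9. Sept5, a septin, had no count in Clstn2-high cells of either mouse and was at least 90.2-fold higher in Col8a1-high cells against a floor of 3 counts over the group, and its reads cannot be told from those of Gp1bb, which it overlaps. Ccl19, a chemokine, had 3.16 against 260.9 CPM, and its near-identical copies make it uncertain. Of the 15 genes, which also took in Rgs7bp, Olfml2b, Ccn5, Ghr, Ehbp1l1, Mustn1 and Cavin2, all but Ghr and Olfml2b were at least 4-fold higher in male mouse 1. Within rows D to G, 12 had the same direction and 7 were at least 4-fold apart, while Matn2, Sytl2 and Sept5 had at most 3 counts in both groups.

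**Figure D4:**
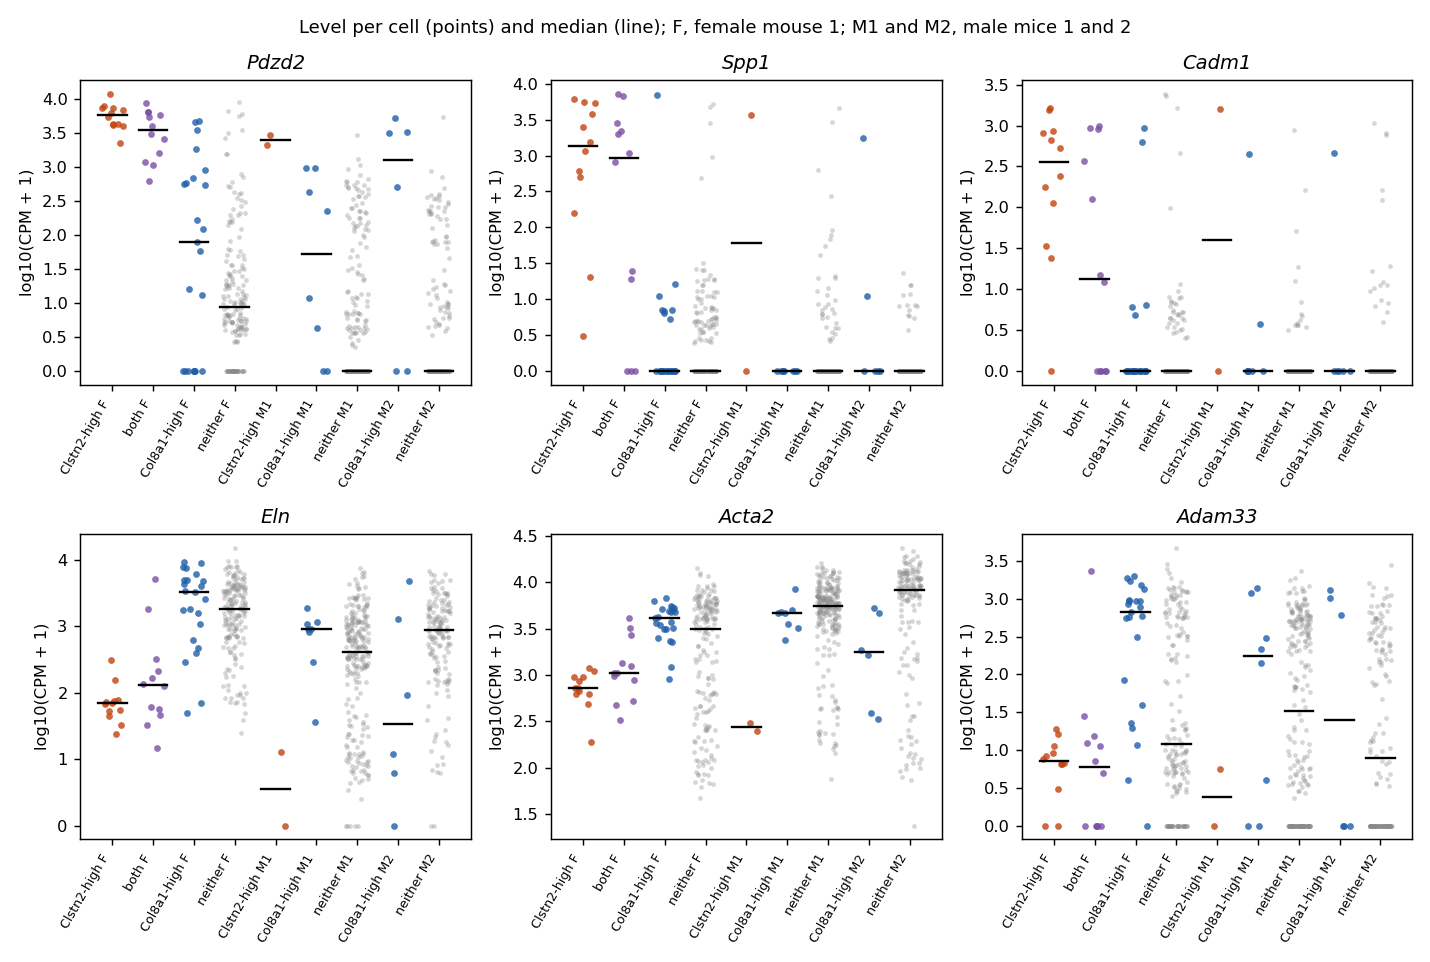
Each point is 1 cell, on a scale of log10(CPM + 1), for Pdzd2, Spp1, Cadm1, Eln, Acta2 and Adam33 in the states of each mouse, with a line at the median. In female mouse 1, Pdzd2 is high in all 12 Clstn2-high cells and spread over 0 to 4782 CPM in the 23 Col8a1-high cells, while Acta2 and Eln show the reverse order with a few overlapping cells.

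Detected basement membrane genes went the other way in small amounts. Of 12 detected, 11 were higher in Clstn2-high cells, against 656 of all 1359 genes. None was past 4-fold in that direction, and the median log2 ratio was 0.68 against -0.07 over all genes. Over the whole list of 27, with 15 under the detection filter, 15 were higher in Clstn2-high and 10 in Col8a1-high cells. Col4a1 and Col4a2, the main collagen IV chains, had 3380 against 1924 CPM (log2 0.81) and 3799 against 1607 CPM (log2 1.24), and the ratio in male mouse 1 was 0.69 and 0.68 on the log2 scale. Of the 12 genes, 8 were higher in Clstn2-high cells within rows D to G, and the log2 ratios of Col4a1 and Col4a2 were -0.064 and 0.15. The 2 genes overlap. The exception was Col18a1, the collagen that releases endostatin, with 100.6 against 1140 CPM (log2 -3.50), and 2.33 and 5.55 CPM against 16.6 to 2546 in male mouse 1, although the ratio within rows D to G was 0.15.

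Immediate early genes, which respond within minutes to stimuli and to tissue dissociation, were lower in Clstn2-high cells. Of 17 detected immediate early and heat shock genes, 11 were at least 4-fold higher in Col8a1-high cells (Nr4a1, Egr1, Ier2, Fos, Junb, Atf3, Hspb1, Jun, Zfp36, Btg2 and Jund) and none in Clstn2-high cells, with a median log2 ratio of -2.81. The direction was the same in male mouse 1 for 10 of the 11, Jund being the exception. Nr4a1, an orphan nuclear receptor, had 113.7 CPM in Clstn2-high cells (44.5 to 357.6, median 112.2) and 1506 CPM in Col8a1-high cells (92.7 to 3765, median 1190), and 16 of 23 Col8a1-high cells lay above every Clstn2-high cell. Egr1 had a median of 110.5 CPM per Clstn2-high and 2514 per Col8a1-high cell, and Fos had 204.8 against 2088 CPM. Cells of neither state in female mouse 1 had 2064 CPM of Nr4a1, 2113 of Egr1 and 2512 of Fos, close to the Col8a1-high values.

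Of the 17 genes, 15 were higher in Col8a1-high cells within rows D to G (median log2 ratio -3.01), and the log2 ratio was -4.87 for Nr4a1, -4.09 for Egr1 and -4.87 for Fos. In male mouse 1 it was -5.47, -4.03 and -1.39, with 1 of the 2 Clstn2-high cells at 2854 CPM of Fos. Median mitochondrial shares were 0.691% in Clstn2-high and 0.565% in Col8a1-high cells of female mouse 1.

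Growth factors and their binding proteins fell into both groups. Of 12 detected, 4 were at least 4-fold higher in Clstn2-high cells (Kitl, Hgf, Hbegf and Angpt2) and 4 in Col8a1-high cells (Igfbp7, Nrp1, Ccn1 and Igfbp3). Restricted to rows D to G, 8 of the 12 were higher in Clstn2-high cells. Hbegf, a ligand of the EGF receptor, was at 20 CPM or more in 12 of 12 Clstn2-high and 8 of 23 Col8a1-high cells of female mouse 1 (917.2 against 202.1 CPM), but had the opposite direction in male mouse 1 (log2 -0.42). In CPM scaled by TMM, its Col8a1-high sums were 227.9 in female mouse 1, 366.1 in male mouse 1 and 604.8 in male mouse 2. Hgf, a ligand of MET, had 135.3 against 21.4 CPM and Angpt2, which modulates the receptor Tie2, 687.1 against 164.4 CPM. Both were under 4-fold without the cell with most counts, at log2 1.96 and 0.98. Angpt1, the main Tie2 agonist made by mural cells, had 492.6 against 310.3 CPM.

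Igfbp7, a secreted binding protein, had 32.03 CPM in Clstn2-high cells (4.16 to 82.4, median 45.4) and 845.7 CPM in Col8a1-high cells (18.4 to 1742, median 692.7), with a log2 ratio of -1.89 within rows D to G. In female mouse 1, 20 of 23 Col8a1-high cells lay above every Clstn2-high cell, and in male mouse 1 all 8 did (469.7 to 2720 CPM against 13.97 and 16.6). Ccn1, a matricellular target of the YAP pathway, had 277.9 against 1754 CPM (log2 -2.66; -6.82 in male mouse 1). Nrp1, a coreceptor for VEGF and semaphorins, had 13.5 against 334.2 CPM and the opposite direction in male mouse 1 (log2 0.87).

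Signalling lists with few detected members gave single genes. In the Wnt and Hedgehog list, Ptch1, the Hedgehog receptor, and Fzd1, a Wnt receptor, were 9.56-fold and 6.32-fold higher in Clstn2-high cells of female mouse 1, and both had the opposite direction in male mouse 1, with 0 and 25.6 CPM of Ptch1 against at most 820.8 and 0 and 2.33 CPM of Fzd1 against at most 550.3. In the BMP and TGF-beta list, 1 of 12 detected genes was past 4-fold on each side, Bambi and Id2. Id2, an inhibitor of bHLH factors, had 32.5 against 155.2 CPM, but the opposite direction within rows D to G, where the 3 Col8a1-high cells summed to 3.50 CPM. None of 5 detected Notch pathway genes was past 4-fold. Heyl, a Notch target, had 1221 against 2184 CPM, and the receptor Notch1 had 952.4 against 440.1.

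Among 9 adhesion genes, Cdh13, a cadherin anchored by a lipid tail, was the one past 4-fold in Col8a1-high cells. It had 21.7 CPM in Clstn2-high cells (0 to 57.7) and 847.8 CPM in Col8a1-high cells (0 to 3074, median 723.9), and 120.8 to 1704 CPM against 2.77 and 6.99 in male mouse 1. The 3 Col8a1-high cells of rows D to G summed to 8.74 CPM and had the opposite direction (log2 1.31). Itga6, a laminin-binding integrin chain, had 203.9 against 1.73 CPM in female mouse 1 and was at 0 in both Clstn2-high cells of male mouse 1. Among proteases and inhibitors, Plat, tissue plasminogen activator, had 1306 CPM in Clstn2-high cells (median 1104) and 128.1 CPM in Col8a1-high cells (median 7.15; log2 3.35; 5.15 within rows D to G; 2.96 in male mouse 1). Timp3, a matrix-bound inhibitor, had 429.9 against 3496 CPM, but 1 Clstn2-high cell held 5605 CPM, the ratio in male mouse 1 was -0.56 on the log2 scale, and the gene lies within Syn3.

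Of 13 detected transcription factors, Hoxb2, Foxf2 and Ebf1 were at least 4-fold higher in Clstn2-high cells and Foxp1 and Nr4a1 in Col8a1-high cells. Foxf2, a forkhead factor of mural cells, had 461.5 CPM in Clstn2-high cells (0 to 1219, median 346.8) against 86.6 CPM (0 to 437.7, median 3.59), and 19.4 and 86.2 CPM against 0 in all 8 Col8a1-high cells of male mouse 1. The 3 Col8a1-high cells of rows D to G were at 0. Foxp1 had 13.1 against 306.5 CPM (log2 -4.55), and 0 and 8.32 CPM against 0 to 1549 in male mouse 1. Hoxb2 was 14.8-fold higher in Clstn2-high cells, with the opposite direction in male mouse 1 (log2 -1.37). Apoe, the lipid carrier, had 106.9 against 1138 CPM in female mouse 1, but the opposite direction within rows D to G (log2 0.69). C4b, a complement component, had 14.9 against 83.2 CPM and the opposite direction in male mouse 1 (log2 0.53).

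**Figure D5:**
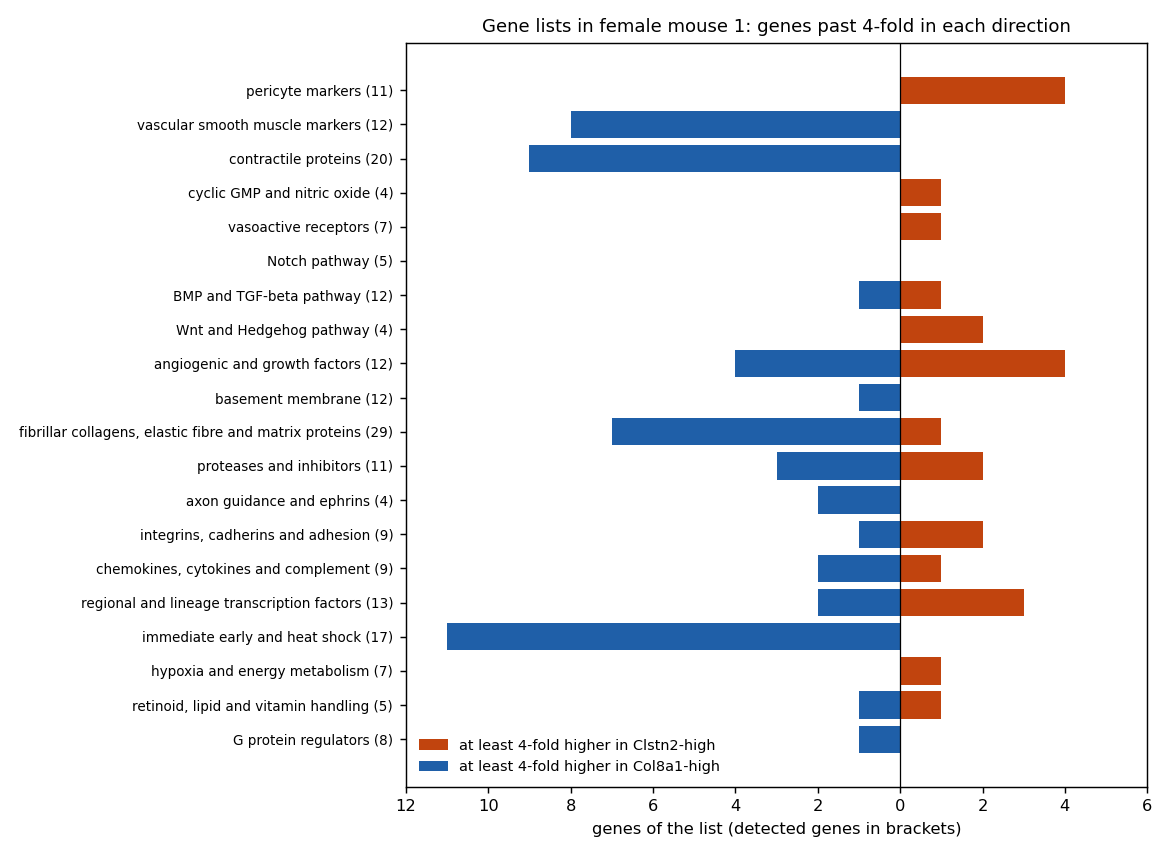
Number of detected genes of each fixed list that were at least 4-fold higher in Clstn2-high or in Col8a1-high cells of female mouse 1, for lists with at least 4 detected genes. The vascular smooth muscle, contractile and immediate early lists have 8, 9 and 11 genes on the Col8a1-high side and none on the other, and the pericyte list has 4 on the Clstn2-high side. The vascular smooth muscle and contractile lists share all of these genes but Mustn1, Ppp1r12b and Tpm2.

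Col8a1-high cells were not uniform. In rows D to G of female mouse 1 the 3 Col8a1-high cells had 48.96, 67.6 and 472.6 CPM of Eln and 915.2, 4596 and 4782 CPM of Pdzd2, while the other 20 had 285.4 to 9218 CPM of Eln (median 3656) and a median of 36.3 CPM of Pdzd2. In male mouse 2 the 3 Col8a1-high cells of high-Cspg4 rows had 3173, 3324 and 5372 CPM of Pdzd2 and 0, 5.11 and 11.1 CPM of Eln, and the other 3 had 0, 0 and 513.9 CPM of Pdzd2 and 92.1, 1285 and 4812 of Eln. The 3 cells of male mouse 1 in high-Cspg4 rows had 282.7, 1154 and 1856 CPM of Eln and 0, 228.8 and 993.2 of Pdzd2. Of the Col8a1-high cells of rows D to G in female mouse 1, 2 lay inside the Clstn2-high range of that mouse for Pdzd2 (2296 to 12170 CPM) and 2 for Eln (23.2 to 313.2 CPM). Male mouse 2 has no Clstn2-high cell to set beside them.

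Cells that met both conditions lay between the states in most of the named genes. Their summed CPM in female mouse 1 (12 cells) was between those of the states for 14 of 15 genes named on the Clstn2-high side and 15 of 15 on the other. Pdzd2 had 4119 CPM in them, Spp1 1545, Eln 607.7 and Acta2 1420. Cells of neither state were at least 4-fold under the Clstn2-high cells in 12 of the 15 genes, and at least 4-fold under the Col8a1-high cells in 3 of 15, with 2563 CPM of Eln and 2826 of Acta2. The named genes were chosen as the largest ratios between the states in the same mouse. Other cells would therefore tend to lie between, and these counts were partly fixed by that choice. No share over all detected genes is given beside them.

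The Col8a1-high cells could be tested against the Pdgfrb-passing cells of neither state in each of the 3 mice, with 23, 8 and 6 Col8a1-high cells in the female and the males in turn. This test was added after the data were seen. Counts were summed per mouse and group and fitted with edgeR's quasi-likelihood test with the mouse as a block, and levels are CPM scaled by TMM, as mean ± SD over mice. The cells of neither state are a mixture with a median of 7 of 17 pericyte markers, and the Col8a1-high cells were chosen on other genes of the same libraries. Of 14765 genes, 12 (0.0813%) rose and 6 (0.0406%) fell at an adjusted p under 0.05, and the median log2 change over all genes was -1.06. Of 17 pericyte markers, 5 rose (Postn, Gucy1a1, Gucy1b1, Ndufa4l2 and Cox4i2) and none fell, with a median log2 change of 1.44. Of 16 vascular smooth muscle markers, 1 fell (P2rx1) and none rose. Without cells that carried at least 50 CPM of Pdgfra, Ptprc, Pecam1 or Epcam, which took 1 Col8a1-high cell each from male mouse 1 and male mouse 2 as well as cells of neither state, 2 genes rose (Postn and Gucy1a1) and 1 fell (P2rx1) of 13755. The other 15 genes kept their direction there with edgeR adjusted p from 0.0502 to 0.288, so their calls depend on that choice.

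Postn rose in Col8a1-high cells by 2.37 ± 0.17 (SE) on the log2 scale (edgeR adjusted p = 0.00488, higher in 3 of 3 mice), from 737.5 ± 128.4 CPM to 3778 ± 242.6 CPM. Gucy1a1, the alpha subunit of the nitric oxide receptor, rose by 2.28 ± 0.17 (edgeR adjusted p = 0.00488) and its partner Gucy1b1 by 2.35 ± 0.30 (edgeR adjusted p = 0.0368). Gucy1b1 had 724.7, 728.9 and 2110 CPM in female mouse 1, male mouse 1 and male mouse 2 against 153.2, 184.7 and 294.1 in cells of neither state. A pair of respiratory chain subunits that low oxygen induces also rose, Ndufa4l2 by 3.52 ± 0.39 (edgeR adjusted p = 0.0257; it overlaps Shmt2) and Cox4i2 by 3.30 ± 0.42 (edgeR adjusted p = 0.0389). Epas1, a hypoxia-inducible transcription factor, rose by 1.77 ± 0.21 (edgeR adjusted p = 0.0321).

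The other 6 genes that rose included Ltbp2 and Pgf. Ltbp2, a latent TGF-beta binding protein family member, had 2904, 1311 and 1206 CPM in female mouse 1, male mouse 1 and male mouse 2 against 497.6, 209.3 and 178.8 (log2 2.65 ± 0.22, edgeR adjusted p = 0.00788). Pgf, a ligand of VEGF receptor 1, had 1153, 1041 and 735.8 CPM against 144.2, 127.2 and 82.96 (log2 3.06 ± 0.31, edgeR adjusted p = 0.0198). In both genes every mouse showed the rise, and the Col8a1-high values lay above all values of the other group. Lipg, endothelial lipase, Slc9a3r2, a PDZ scaffold, App, the amyloid precursor protein, and Trp53i11 made up the remainder, with log2 changes from 1.47 to 5.52. None of 10 endothelial markers was called (median log2 change -1.67), although their median sum per cell was higher in Col8a1-high cells in each mouse. The part of other cells' RNA in these changes was not tested.

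Genes that fell included P2rx1 and Hhip. P2rx1, the ATP-gated channel of vascular smooth muscle, had 2.14, 2.89 and 2.91 CPM in Col8a1-high cells of female mouse 1, male mouse 1 and male mouse 2 against 198.4, 432.8 and 408.5 (log2 -6.95 ± 0.68, edgeR adjusted p = 0.0193). Hhip, the Hedgehog-interacting protein of airway smooth muscle and myofibroblasts, fell by 5.07 ± 0.55 on the log2 scale (edgeR adjusted p = 0.0242). Among the others, Cpe, a carboxypeptidase, Mgp, the matrix Gla protein, and the gene model Gm26809 also fell. Acta2 (log2 -0.21, edgeR adjusted p = 0.836), Tagln (-0.38, edgeR adjusted p = 0.666) and Eln (0.07, edgeR adjusted p = 0.947) did not pass the test, and neither did Notch3 (1.58, edgeR adjusted p = 0.136), Higd1b (4.35, edgeR adjusted p = 0.117) and Pdzd2 (2.75, edgeR adjusted p = 0.138). Without female mouse 1, 5 genes were called (Postn, Gucy1a1, P2rx1, Cpe and Gm26809), all among the 18, and all 18 were called without male mouse 1 and without male mouse 2. On simulated data this design recovered 0% of genes changed 4-fold and 43% of those changed 16-fold, and called 5 unchanged genes. A gene that missed the threshold may thus still differ, and some of the 18 calls may be false. The fit to the real data called App, Epas1 and Mgp at changes under 4-fold (log2 1.47, 1.77 and -1.91). The simulation recovered no gene even at 4-fold, so it does not describe how such calls arise.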

How the data were processed

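Gene expression was measured in 1376 single lung cells, of which 653 came from male mouse 1, 352 from male mouse 2 and 371 from female mouse 1. Raw read counts of 46517 Ensembl genes, as whole numbers without normalization, were deposited by the authors for every cell. Tools named in the submitters' processing notes, with no version or role, are Subread, featureCounts, Bowtie, Bowtie2 and bcl2fastq, with the builds mm10 and GRCm38. The sources used here do not give the strand setting. Symbols and coordinates came from the GENCODE M21 annotation of GRCm38 for 46005 genes, and the 512 without a symbol held 0.185% of counts. No column was left unused. No doublet caller was run, but cells that met the conditions of both states were dropped.

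States were assigned by the CPM thresholds stated above, which left 14 and 37 of 644 Pdgfrb-passing cells, 18 that met both conditions and 575 that met neither. The members and the gene lists were chosen with earlier results of these data known. The mouse was the replicate. The planned edgeR test between the states could not be run, because only female mouse 1 had at least 3 cells of each, so genes were described by the ratio of summed CPM, past 4-fold. That size rule was completed after the group sizes were known. Where a state had no count, a floor of 3 counts over the group gave a bound. Intervals are exact at 95% and cover counting error only. PCR reads without molecular identifiers are not independent molecules. Named genes were those past 4-fold, at 20 CPM in at least 50% of the higher state's cells and in the same direction in male mouse 1, the 15 largest per direction, up to 6 members per list and direction, the 3 most abundant other members, and every pericyte marker. Genes of the rule, mitochondrial genes and unnamed gene models were left out.

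Col8a1-high cells were tested against cells of neither state with edgeR 4.0.16 (glmQLFit and glmQLFTest, TMM factors, filterByExpr, two-sided, Benjamini-Hochberg adjustment over 14765 genes). The mouse was a block because both sums of a pair come from the same animal, which leaves 2 residual degrees of freedom, and standard errors are the log2 change divided by the square root of F. DESeq2 1.42.0 and limma 3.58.1 served as alternatives, in R 4.3.3. Other steps used Python 3.11.15 with pandas 2.3.3, numpy 2.4.6 and scipy 1.17.1. The fits were tested on simulated data with 100 genes changed at each size. Alternatives added after seeing the data were the fit over 2 mice, the restriction to high-Cspg4 rows, TMM scaling of the sums, leaving out each gene's highest cell, and the test against cells of neither state, also without cells with markers of other types. Some genes are not reported here.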

Additional observations from a re-analysis of the deposited data

How the results depend on the processing

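Of the detected genes, 6.92% were at least 4-fold higher in Clstn2-high and 12.4% in Col8a1-high cells. These shares were 6.28% to 8.42% and 11.9% to 12.8% with TMM or RLE scaling, cells weighted equally, 4 of 6 genes, or 50 CPM for a gene of the rule. Pdgfrb at 500 CPM, or leaving out cells with markers of other types, removed no cell of female mouse 1. Those 2 settings therefore could not change the shares. They became 12.9% and 21.4% (of 17928 genes) with no filter on low counts, 7.67% and 11.8% (of 1995) in cells thinned to 50000 counts, and 19.1% and 19.5% (of 1720) in high-Cspg4 rows alone. Leaving out each gene's highest cell gave 5.52% and 11.2%. Leaving out female mouse 1, so that male mouse 1 alone remained, gave 34.2% and 15.8%. Leaving out either male mouse could not change the shares, since they come from female mouse 1 alone. A minimum of 10 cells leaves the same single mouse. Col8a1-high cells made up 8.3% of cells with Pdgfrb at 500 CPM.

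Over the 2 mice with at least 2 cells of each state, edgeR with the mouse as a replicate block called 0.116% and 0.338% of 8585 genes. With no replicate block it called 0 and 0, with 91 genes at an unadjusted p under 0.05 toward Clstn2-high cells. DESeq2 called 0.34% and 0.0296%, RLE factors 0.186% and 0.268%, limma with cells weighted equally 0.259% and 0.435%, sums per plate 0.0547% and 0.31%, a fit that also held cells of neither state 0.029% and 0.311%, and high-Cspg4 rows 0 (17 at an unadjusted p under 0.05) and 0.097%. In simulated data this design recovered 0% of 4-fold and 3% of 16-fold changes.

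For Col8a1-high cells against cells of neither state (0.0813% of genes rose, 0.0406% fell), the shares were 0.0406% and 0.0406% with no replicate block, 0.939% and 15.2% with DESeq2, 0.129% and 0.0339% with RLE, 0.128% and 0.139% with no filter, and 0.0145% and 0.00727% without cells with markers of other types. Leaving out a mouse gave 0.0134% to 0.35% and 0.0201% to 0.516%.

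Leaving out a mouse or the highest cell turned the direction, always in male mouse 1 alone, for Abcc9 (log2 -4.12 to 0.997), Lyz2 (-3.49 to 6.24), Ptch1 (-3.19 to 3.26), Fzd1 (-6.76 to 2.66), Hbegf (-0.42 to 2.18), Nrp1 (-4.63 to 0.87), Fn1 (-3.64 to 4.19), Itga6 (-3.96 to 6.88), C4b (-2.48 to 0.53) and Hoxb2 (-1.37 to 3.89). In high-Cspg4 rows it turned for Id2 (3.22), Col18a1 (0.15), Cdh13 (1.31), C4b (0.28) and Apoe (0.69), and with 4 of 6 genes for C4b (1.05). Without the cell with most counts, Lyz2 (0.13), Agtr1a (1.74), Hgf (1.96) and Angpt2 (0.98) were among the genes that fell under 4-fold. The cause of these shifts was not tested.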
